A study of Homo sapiens with 6 samples.

Results

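Genes of apolipoproteins and lipoprotein assembly were followed in Huh-7 cells, an established human hepatocellular carcinoma line, after exposure to amiloride, a potassium-sparing diuretic. They were APOB, MTTP, APOA1, APOA2, APOM, APOE, APOC3, APOA5, LIPC and APOH. These members were chosen by their symbols and not by their values, though with earlier results of these data known. All 10 were measured, by 144 probe sets, among 18674 genes with at least 3 probe sets each. The groups were 3 arrays of Huh-7 cells kept in growth medium with 0.5 mM amiloride for 24 h and 3 arrays of untreated Huh-7 cells, each array labelled a biological replicate. Amiloride came from a stock in DMSO, and the labels do not say whether the untreated cells received DMSO. Both groups were the same single line, with no other agent or genetic change in the labels. Each array was a Human Exon 1.0 ST Array, which reads a transcript with many short probe sets along its length, so that a gene has a gene level (here the median log2 intensity over its probe sets) and a profile across probe sets. In RNA from a whole dish, fewer cells expressing a gene and less RNA per cell cannot be told apart.

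The liver exports triglyceride and cholesteryl ester in particles built on a single copy of APOB, a very large secretory protein. MTTP loads lipid on APOB in the endoplasmic reticulum while the chain is being made, and APOB that is not lipidated is degraded in the cell. Smaller, exchangeable apolipoproteins then settle on the surface of the particle, where they steer lipases and receptors, while APOA1 and APOA2 carry high-density lipoprotein (HDL). Hepatoma lines such as Huh-7 make most of these proteins, which is why they are a common model of hepatic lipoprotein secretion.

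The arrays were not on a common scale. Median intensities were 12, 4.71 and 6.26 on amiloride replicates 1 to 3 and 13.1, 5.08 and 6.42 on untreated replicates 1 to 3. Gene levels are therefore also given relative to the array, as the log2 gene level minus the log2 median of all probe sets on that array (the relative level). Untreated replicate 1 stood apart at gene level: its gene levels correlated with the other 5 arrays at r = 0.793 to 0.842, against 0.90 to 0.964 among those 5. Over all probe sets, the highest r with any other array was 0.794 for untreated replicate 2 and 0.813 for untreated replicate 1. It was between 0.884 and 0.902 for the remaining arrays. All 10 hepatocyte markers lay at least 2 log2 units above the array median on all 6 arrays, with summed intensities of 4785 to 13279 in amiloride-treated and 5479 to 7837 in untreated cells. None of 5 endothelial and 5 fibroblast markers did so, and of 6 leukocyte and 5 enterocyte markers only LYZ and VIL1 did.

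No member passed the test. In limma, with Benjamini-Hochberg adjustment over all genes, 0 of the 10 members were called at an adjusted p under 0.05, and 0 had an unadjusted p under 0.05. Of all genes, 0.0321% were called higher (6 genes) and 0% lower. On relative levels 0 of 10 were again called, against 0.0107% of all genes, and APOB alone had an unadjusted p under 0.05, against 14.3% of all genes. As deposited, 7 of the 10 genes had a fold change above the median of all genes and 3 below it, and the median log2 fold change was 0.17 over the members and 0.04 over all genes. A gene-level log2 fold change as deposited had a standard error of 0.659, common to all genes in this fit. On relative levels the standard errors of the members ran between 0.25 (APOA5) and 0.70 (APOH).

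**Figure D1:**
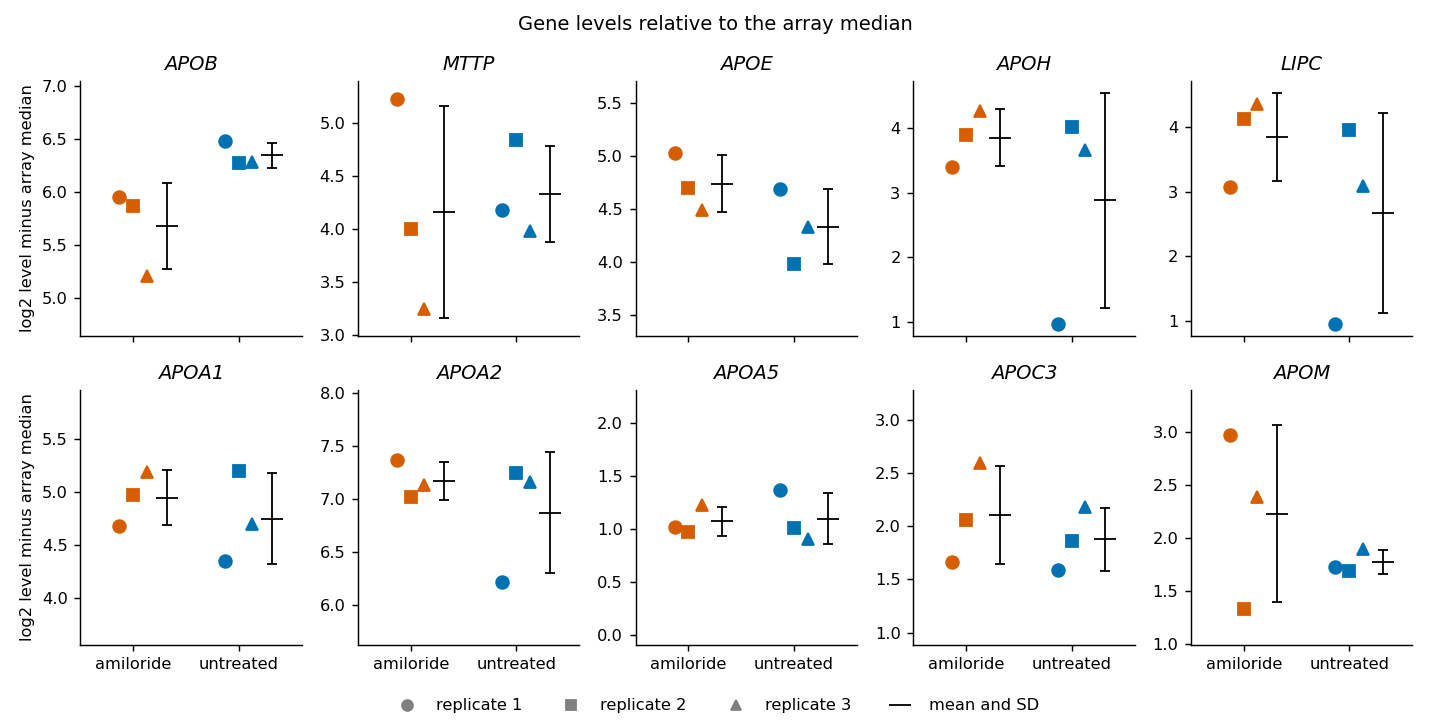
Relative log2 gene level (log2 gene level minus the log2 median of all probe sets on that array, vertical axis) of the 10 genes on each array, with amiloride-treated cells left of untreated cells. Each symbol is 1 array, with its shape giving the replicate number, and the bars beside it give the mean and SD of the group (n = 3), each gene on its own axis. The 3 amiloride points of APOB (5.22 to 5.96) lie below its 3 untreated points (6.28 to 6.48), and untreated replicate 1 is the low point of APOH and LIPC.

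APOB, the structural protein of very low-density and low-density lipoprotein, was the member with the lowest fold change. Its log2 gene level as deposited was 9.54, 8.11 and 7.86 on amiloride replicates 1 to 3 and 10.19, 8.62 and 8.97 on untreated replicates 1 to 3. These ranges overlapped, because replicate 1 was the brightest array of both groups. The log2 fold change was -0.75 ± 0.659 (SE, n = 3 per group), a fold of 0.593, with a limma adjusted p of 1 and an unadjusted p of 0.253. Relative to the array median, APOB was at 5.96, 5.87 and 5.22 in amiloride-treated cells and at 6.48, 6.28 and 6.28 in untreated cells. All 3 amiloride values were below all 3 untreated values, and 2.89% of all genes showed such a separation downward. On this scale the log2 difference was -0.67 ± 0.28 (SE), with a 95% interval of -1.29 to -0.04, an unadjusted p of 0.0393 and a limma adjusted p of 0.318. The lower level was therefore seen on every amiloride array after scaling but did not pass the test across all genes. With 1 array left out, the log2 fold change of APOB ran between -1.27 (without amiloride replicate 1) and -0.29 (without untreated replicate 1) as deposited, and between -0.80 and -0.43 on relative levels.

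The long APOB transcript is read by 45 probe sets, more than any other member has. Of these, 44 (97.8%) had a lower mean in amiloride-treated than in untreated cells, against 47.1% of all probe sets of genes. Their log2 ratios ran between -1.29 and 0.18 with a median of -0.62, and 16 of the 45 had all 3 relative amiloride values below all 3 untreated values, as did 3.49% of the probe sets of all genes. No probe set of any member was called in limma by itself (0 of 144, against 0.00071% of all probe sets called higher), and 2 of the 144 had an unadjusted p under 0.05, against 1.96% of all probe sets. Probe sets of a gene are read from the same RNA on the same arrays and are not replicates of the treatment. On 39 of the 45 probe sets the lowest relative value was that of amiloride replicate 3. Untreated replicate 1 was the highest on 22, untreated replicate 2 on 12 and untreated replicate 3 on 8.

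Genes with many probe sets were set beside APOB as a background. Of 882 genes with at least 45 probe sets, 60.9% had a fold change below the median of all genes, and their median log2 fold change was -0.04, against 0.04 in the other genes. APOB lay near the lower end of this group, in which 8 genes (0.907%) had a fold change at or below that of APOB and 4 (0.454%) had at least the same share of lower probe sets, APOB included in both. All relative amiloride levels were below all untreated levels in 15 of the 882 (1.70%).

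**Figure D2:**
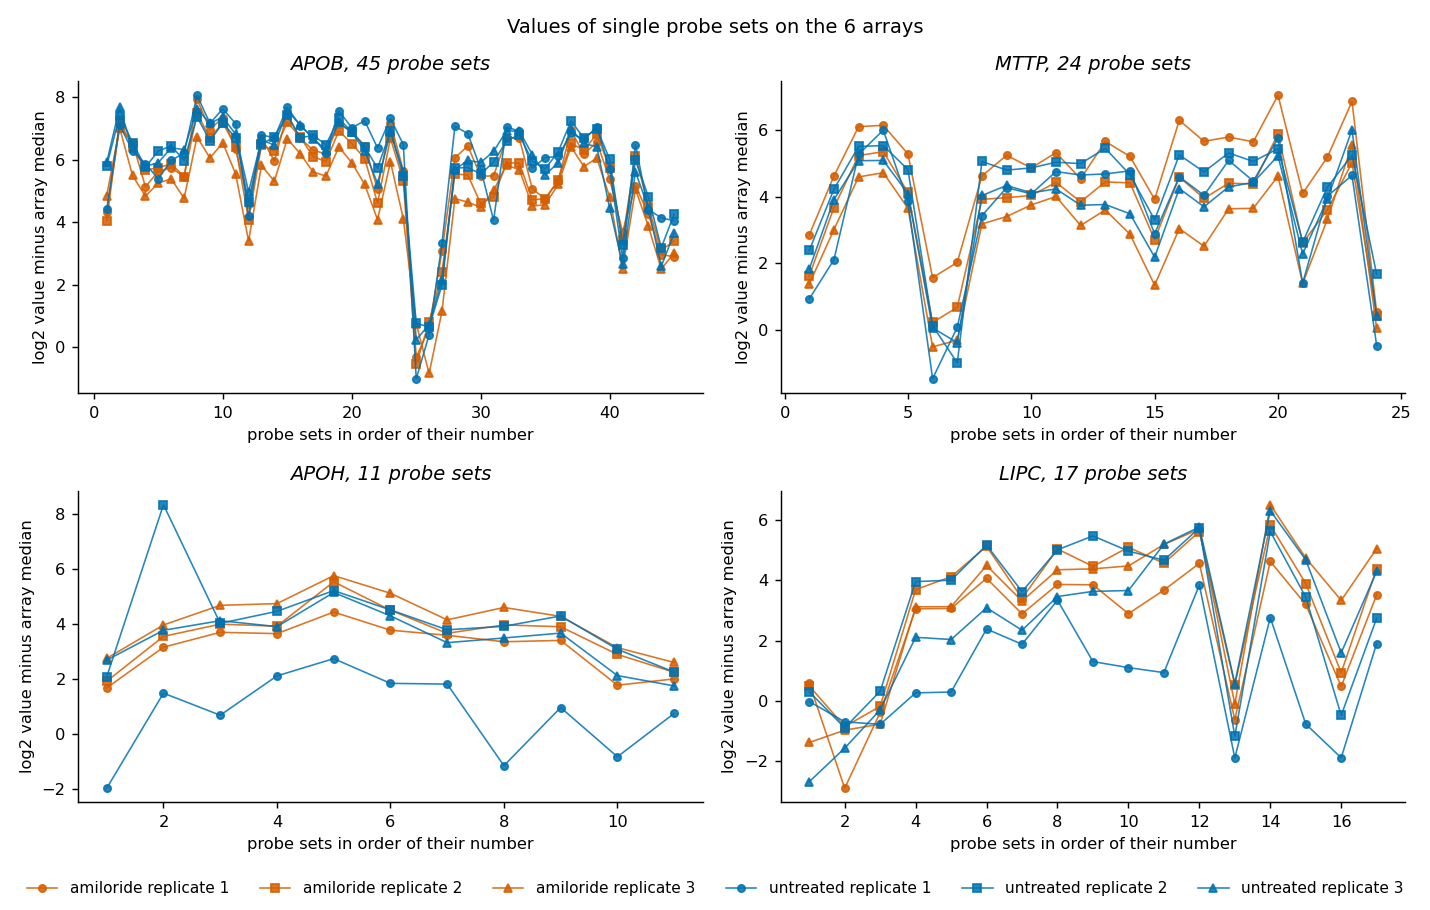
Log2 value minus the array median (vertical axis) of every probe set of APOB, MTTP, APOH and LIPC, in the order of the probe set numbers (horizontal axis), with 1 line per array. The amiloride mean is lower on 44 of 45 probe sets of APOB and 16 of 24 of MTTP, and the line of untreated replicate 1 lies lowest on all 11 probe sets of APOH and on 15 of 17 of LIPC.

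MTTP encodes the large subunit of the microsomal triglyceride transfer protein, the partner of APOB in assembly. Its log2 gene level was 8.81, 6.24 and 5.90 on amiloride replicates 1 to 3 and 7.88, 7.18 and 6.66 on untreated replicates 1 to 3. Relative to the array median it was 5.22, 4.0 and 3.25 in amiloride-treated cells and 4.18, 4.84 and 3.98 in untreated cells. Amiloride replicate 1 was thus the highest of the 6 arrays and amiloride replicate 3 the lowest, so the untreated values lay inside the amiloride range. The same order held along the transcript, since amiloride replicate 1 was the highest array on 20 of 24 probe sets and amiloride replicate 3 the lowest on 18. The relative log2 difference was -0.17 ± 0.47 (SE), with a 95% interval of -1.24 to 0.89 and a limma adjusted p of 0.945, so neither direction was resolved for MTTP.

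The HDL apolipoproteins differed by less than the spread between arrays. APOA1, the main protein of HDL and the activator of LCAT, had relative levels of 4.68, 4.97 and 5.19 in amiloride-treated cells and 4.35, 5.20 and 4.70 in untreated cells. The difference was 0.20 ± 0.29 (SE) on the log2 scale, with a 95% interval of -0.47 to 0.86 and a limma adjusted p of 0.868. APOA2, the second protein of HDL, was at 7.37, 7.01 and 7.13 in amiloride-treated cells and at 6.22, 7.24 and 7.16 in untreated cells. Apart from untreated replicate 1, the low array here too, the APOA2 values ran between 7.01 and 7.37 in both groups. APOM, which carries sphingosine 1-phosphate on HDL, was at 2.97, 1.33 and 2.39 in amiloride-treated cells and at 1.73, 1.69 and 1.90 in untreated cells. Its amiloride arrays enclosed the untreated ones, and the relative log2 difference of 0.46 ± 0.39 (SE) had a limma adjusted p of 0.699.

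The members that are exchangeable apolipoproteins of triglyceride-rich particles were APOE, APOC3 and APOA5, and none passed the test. APOE is a ligand of the lipoprotein receptors that clear remnants from the blood. Its relative levels were 5.03, 4.70 and 4.49 in amiloride-treated cells and 4.69, 3.98 and 4.33 in untreated cells. The groups overlapped between 4.49 and 4.69, and the log2 difference was 0.41 ± 0.28 (SE), with a limma adjusted p of 0.599. APOC3, an inhibitor of lipoprotein lipase and of remnant uptake, was at 1.67, 2.06 and 2.59 in amiloride-treated cells and at 1.59, 1.86 and 2.19 in untreated cells. APOA5, which promotes lipolysis by lipoprotein lipase, was at 1.02, 0.97 and 1.23 in amiloride-treated cells and at 1.37, 1.01 and 0.91 in untreated cells. Both genes overlapped between groups, with relative log2 differences of 0.23 ± 0.31 and -0.02 ± 0.25 (SE) and limma adjusted p of 0.847 and 0.987.

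In the RefSeq annotation of GRCh38.p14, APOA5, APOA4, APOC3 and APOA1 follow each other on chromosome 11, and APOC1 neighbours APOE on chromosome 19. The log2 fold changes of these neighbours as deposited were -0.29 for APOA4 and 0.44 for APOC1, beside -0.11 for APOA5, 0.14 for APOC3, 0.11 for APOA1 and 0.32 for APOE. Each had a limma adjusted p of 1, and none of these fold changes exceeded its standard error of 0.659.

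LIPC and APOH had the highest fold changes of the members. LIPC encodes hepatic lipase, which hydrolyses triglyceride and phospholipid in remnants and HDL, and APOH encodes beta-2-glycoprotein I, a plasma protein that binds anionic phospholipid. The log2 gene level of LIPC was 6.66, 6.36 and 7.0 on amiloride replicates 1 to 3 and 4.65, 6.31 and 5.77 on untreated replicates 1 to 3. All 3 amiloride values were above all 3 untreated values, narrowly so for replicate 2, and 6.26% of all genes showed such an upward separation. In the other direction, 0 of the 10 members and 0.503% of all genes were separated as deposited. The log2 fold change of LIPC was 1.10 ± 0.659 (SE), with an unadjusted p of 0.096 and a limma adjusted p of 1. On relative levels LIPC was at 3.07, 4.12 and 4.36 in amiloride-treated cells and at 0.94, 3.96 and 3.09 in untreated cells, and the groups overlapped.

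The LIPC difference rested largely on 1 array. Untreated replicate 1, the array that stood apart at gene level, was the lowest of the 6 on 15 of 17 probe sets. Without it the relative log2 difference was 0.32, against 1.19 ± 0.68 (SE) with it. APOH behaved alike: its relative levels were 3.40, 3.89 and 4.27 in amiloride-treated cells and 0.96, 4.02 and 3.66 in untreated cells. Untreated replicate 1 was the lowest array on all 11 probe sets of APOH, and without it the relative log2 difference was 0.01, against 0.97 ± 0.70 (SE) with it. Without the same array the relative log2 difference was -0.60 for APOB, 0.58 for APOE, 0.44 for APOM, 0.11 for APOA5, 0.08 for APOC3, -0.0013 for APOA1, -0.03 for APOA2 and -0.25 for MTTP. APOA1 and APOA2 thus lay close to 0 and APOE and APOM were the highest members when that array was left out.

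**Figure D3:**
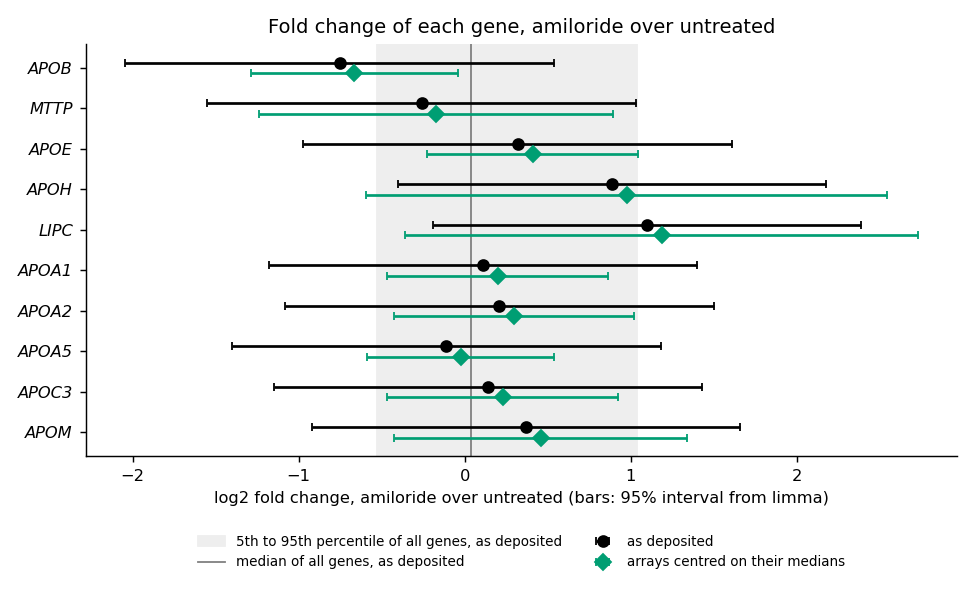
Log2 fold change of amiloride-treated over untreated cells (horizontal axis) for each of the 10 genes, as deposited (circles) and on relative levels (diamonds), with 95% intervals from limma. The vertical line and the grey band give the median and the 5th to 95th percentile of all genes as deposited. On relative levels the median of all genes was 0.13. The relative interval of APOB (-1.29 to -0.04) lies below 0, and all other intervals include 0.

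Promoter sequence is shown for LIPC, APOH and APOA5, because these were the members whose promoter held the core letters of the HNF1 motif, HNF1 being a transcription factor of hepatocytes. RefSeq windows of GRCh38.p14, from 250 bases before to 50 after a start, were at hand for 7 of the 10 members. The letters GTTAAT, on either strand, were in a window of 3 of these 7 genes, and in 6.88% of all 35116 windows. The 7 genes had 1 to 3 windows each and counted if any held the letters, so counts of genes and shares of windows are unlike measures. The HNF4A-type letters CAAAGTCC were in 0 of the 7 and in 1.20% of all windows. The letters TATAAA were in 2 of the 7 (APOA5 and MTTP) and in 11.5% of all windows. In the stretches below, capitals mark the HNF1-type letters, written 5′ to 3′ on the strand of the gene, where ATTAAC is GTTAAT read on the opposite strand. The stretches are LIPC at chr15:58431915-58431940 (plus strand), APOH at chr17:66229610-66229635 and chr17:66229449-66229474 (minus strand) and APOA5 at chr11:116792534-116792559 (minus strand).
LIPC: atgttgagagGTTAATtattaatggg
APOH, upstream site: gttttgtgccATTAACaaaaacgtta
APOH, site nearer the start: ccagaaaatgGTTAATgtttaagcgc
APOA5: cagggcactcATTAACcctctgggtg
The letters began 66 bases before the start in LIPC, 210 and 49 before it in APOH and 129 before it in APOA5. LIPC and APOH had the highest log2 fold changes of the 10 genes (1.10 and 0.89), and APOA5, with the same letters, was at -0.11. Without untreated replicate 1 the relative log2 differences of these genes were 0.32 for LIPC, 0.01 for APOH and 0.11 for APOA5. The members with windows but no such letters were at 0.58 (APOE), 0.44 (APOM), -0.03 (APOA2) and -0.25 (MTTP). A link between the letters and the levels was not tested. A match of letters is not evidence that the factor binds there.

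The study asked where amiloride altered exon use, so the profile of each gene along its probe sets was also compared. For each probe set and array, the gene level on that array was subtracted from the log2 value to give an index, and the splicing index was the mean index in amiloride-treated minus that in untreated cells. No splicing index of the 144 probe sets passed limma with adjustment over all probe sets of genes (0% of all were called), and 4 (2.78%) had an unadjusted p under 0.05, against 4.75% of all probe sets. The share among the members was thus no higher than the background. Mean profiles of the 2 groups correlated across the probe sets of a gene at r = 0.808 for APOH and at 0.937 to 0.997 for the other 9 genes.

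Those 4 probe sets belonged to 4 genes. In MTTP, the index of probe set 2737267 was -3.19, -3.32 and -3.55 in amiloride-treated cells and -4.09, -5.82 and -4.35 in untreated cells, a splicing index of 1.40 ± 0.49 (SE, unadjusted p = 0.0222 in limma). The probe set was dim, with mean log2 values of 3.63 in amiloride-treated and 2.49 in untreated cells. In APOB, probe set 2543208 was the only 1 of 45 with a mean that was not lower in amiloride-treated cells, with log2 values of 7.27, 5.68 and 5.14 in amiloride-treated and 6.58, 5.62 and 5.35 in untreated cells. Its index did not overlap between groups, as was so for 15 of the 144 probe sets of the members. The share over all probe sets was not computed, so this count is not read as a result. The splicing index of 2543208 was 0.94 ± 0.34 (SE, unadjusted p = 0.0244 in limma). This probe set lay below the gene level of APOB on every array. Its index was -2.27, -2.43 and -2.72 in amiloride-treated and -3.61, -3.0 and -3.62 in untreated cells. In LIPC, probe set 3595767 had an index of 1.5, 1.5 and 1.35 in amiloride-treated cells and 2.91, 1.78 and 2.68 in untreated cells. This bright probe set was at 8.15, 7.86 and 8.35 in amiloride-treated and at 7.56, 8.09 and 8.46 in untreated cells, so it lacked the difference seen in the gene level. In APOA5, probe set 3392962 was at or near the floor of the scale in amiloride-treated cells (log2 values of 1.79, 0 and 0.36) and at 2.02, 1.90 and 2.44 in untreated cells, with an unadjusted p of 0.0433 in limma for the splicing index. All 4 had a limma adjusted p of 0.957.

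A further probe set of APOH turned on a single array. Probe set 3767711 was at 6.74, 5.78 and 6.61 in amiloride-treated cells and at 5.19, 10.67 and 6.45 in untreated cells, so untreated replicate 2 alone was far above the other 5 arrays. The study filtered putative splicing events by 3 criteria, namely a splicing index and a log2 ratio each at or below -1.585 and a correlation of profiles of at least 0.7. There the splicing index was taken from the mean profiles, and its lowest value per gene ran between -1.86 (APOH) and -0.39 (APOA2), its highest between 0.04 (APOM) and 1.37 (MTTP). They were met by 0 of the 144 probe sets of the members, against 0.382% of all probe sets of genes. APOH probe set 3767711 and LIPC probe set 3595699 were past the criterion on the splicing index (-1.86 and -1.85) but not on the log2 ratio (-1.06 and -0.61). APOA5 probe set 3392962, with -1.54 and -1.41, was just short of both.

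The genes that act with these members were grouped by role, and none of the 106 genes measured in 7 lists passed limma with adjustment over all genes. Other genes of apoB particle assembly and secretion, among them the endoplasmic reticulum chaperones and the coat proteins of export vesicles, were 11 above and 10 below the median of all genes, over 21 measured. SEC24D, a cargo adaptor of the COPII coat, was the only 1 with an unadjusted p under 0.05 (log2 fold change -1.32 ± 0.659 SE), as had 2.10% of all genes. That p was 0.0458 in limma, with an adjusted p of 1. Its relative levels were 3.08, 1.6 and 1.21 in amiloride-treated cells and 2.65, 3.30 and 3.63 in untreated cells, and overlapped through amiloride replicate 1. In 6 of the 21 all relative amiloride levels were above all untreated levels, against 16.5% of all genes. These included PDIA3, a disulfide isomerase of the endoplasmic reticulum, with 2.91, 3.65 and 3.44 in amiloride-treated and 1.25, 2.46 and 2.87 in untreated cells. In 0 of the 21 were all relative amiloride levels below all untreated levels, against 2.89% of all genes.

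Lipid supply and HDL formation were split between both directions. Of 17 genes that supply triglyceride and cholesteryl ester, 9 were above and 8 below the median of all genes, with 0 called. GPAM, the first enzyme of glycerolipid synthesis, had a log2 fold change of -1.06 and ACSL1, which activates fatty acids, 0.76. PNPLA3, a lipid droplet hydrolase, had relative levels of 1.80, 0.91 and 0.77 in amiloride-treated and 1.88, 1.92 and 2.02 in untreated cells, which did not overlap. Among the 17 genes, 2 were separated downward and 1 upward on relative levels, against 2.89% and 16.5% of all genes. Of 11 genes of HDL formation and remodelling, 5 were above and 6 below. The paraoxonase PON3, an enzyme of the HDL surface, was at 2.08, 2.21 and 1.81 in amiloride-treated and at 0.59, 1.54 and 1.15 in untreated cells, a relative log2 difference of 0.94 with an adjusted p of 0.224 in limma.

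Of 14 other apolipoproteins measured, 5 were above and 9 below the median of all genes. CLU, the chaperone also called apolipoprotein J, had relative levels of 4.6, 4.66 and 4.31 in amiloride-treated and 4.46, 3.35 and 3.54 in untreated cells. SAA4, an apolipoprotein of HDL, had a log2 fold change of -0.93, with relative levels of 0.18, -0.67 and -1.0 in amiloride-treated and -0.75, 0.68 and 1.10 in untreated cells. SAA4 was dim, with mean log2 levels of 2.33 in amiloride-treated and 3.25 in untreated cells. Lipases and their regulators were 6 above and 4 below, over 10 measured. LIPG, the endothelial lipase that acts on HDL phospholipid, was at 0.98, 0.65 and 0.23 in amiloride-treated and at 1.47, 1.30 and 1.18 in untreated cells. These did not overlap, unlike those of LIPC, and the adjusted p of LIPG was 0.291 in limma on relative levels. Among the 10 genes, 1 was separated downward and 1 upward on relative levels, against 2.89% and 16.5% of all genes.

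Lipoprotein receptors and their regulators were 3 above and 7 below the median of all genes, over 10 measured, with a list median of -0.16 on the log2 scale, against 0.04 for all genes. LRP8, a receptor that binds APOE, was at 1.36, 0.85 and 0.62 in amiloride-treated and at 1.80, 1.76 and 1.54 in untreated cells, with no overlap. MYLIP, a ubiquitin ligase that targets lipoprotein receptors, was at 3.10, 1.52 and 1.32 in amiloride-treated and at 1.09, 0.80 and 0.82 in untreated cells, again with no overlap and in the opposite direction. Of the 10 genes, LRP8 alone was separated downward, against 2.89% of all genes, and MYLIP alone upward, against 16.5%. The limma adjusted p on relative levels were 0.264 for LRP8 and 0.305 for MYLIP. Of 23 transcription factors of apolipoprotein genes, 14 were above and 9 below. NR2F1, an orphan nuclear receptor, was at 4.02, 3.30 and 3.33 in amiloride-treated and at 2.86, 2.51 and 2.37 in untreated cells, with a limma adjusted p of 0.204 on relative levels. PPARA, the fatty acid receptor of the liver, was at 0.69, 0.78 and 0.87 in amiloride-treated and at 1.35, 1.19 and 1.06 in untreated cells, with an adjusted p of 0.483 in limma.

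**Figure D4:**
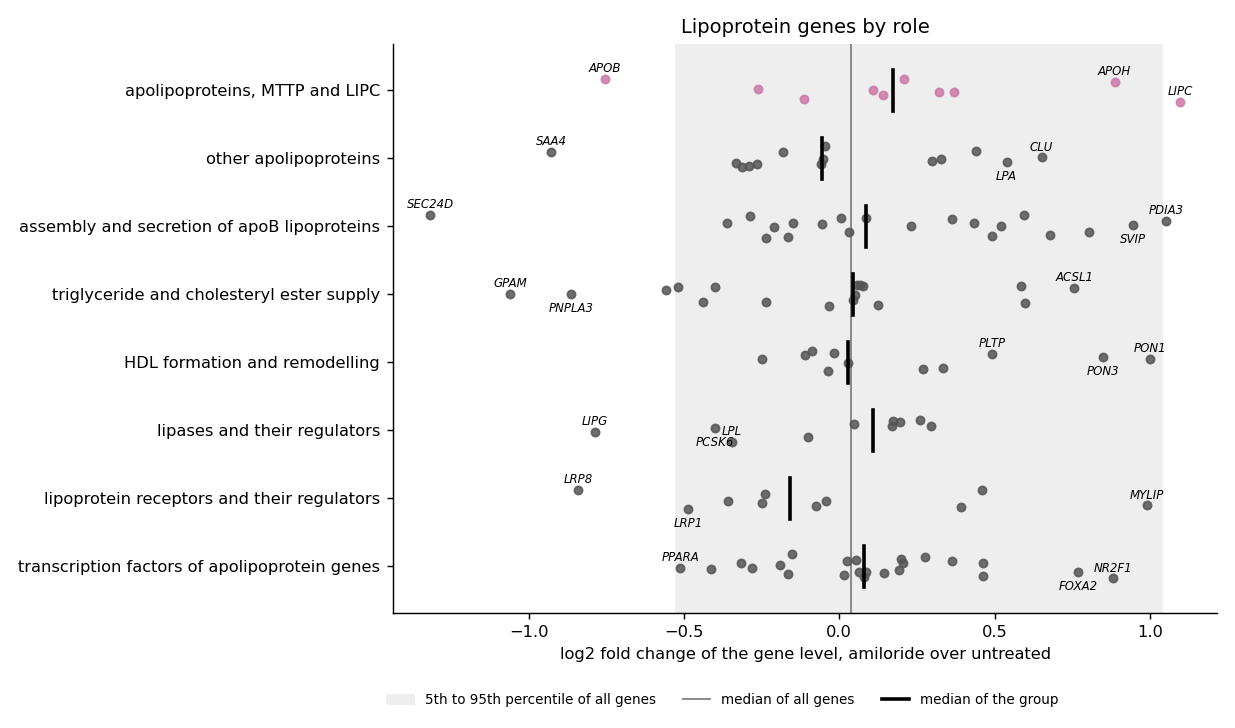
Log2 fold change of amiloride-treated over untreated cells as deposited (horizontal axis) for the 10 members in the top row and the genes of 7 lists of lipoprotein metabolism under it, with 1 point per gene, a black bar at each median and a grey band at the 5th to 95th percentile of all genes. Every row spreads on both sides of the median of all genes (0.04), and 0 of these genes passed the test.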

How the data were processed

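Total RNA of Huh-7 cells was labelled and hybridised to Human Exon 1.0 ST arrays. Per the labels and the study's methods, the authors removed background with control probes, normalized the arrays and summarised probe sets in dChip. The deposited values are linear intensities, with 1 for each probe set on each array (genome build hg18 per the labels). The release of dChip differs between the methods and the series text. Exon numbers and coordinates of probe sets were not used here. All 6 arrays were used, and 0 sample columns were left out.

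Values under 1 were set to 1 and log2 was taken. The array annotation gave 357582 of 1408285 probe sets 1 symbol, 15322 several and 1035381 none. Only the first kind entered gene levels and splicing indices, while the array medians and the test of single probe sets took all 1408285. Among these symbols, 2966 older ones were updated, 16472 needed no update and 122 stayed as given. Gene levels of 18674 genes were tested with limma 3.58.1 (lmFit and eBayes, no block) in R 4.3.3, and an adjusted p (Benjamini-Hochberg) under 0.05 was called. The number of arrays limits the precision, and an exact permutation test of 3 against 3 cannot go below p = 0.1. P-values measure the spread between arrays, which were labelled biological replicates without further detail. As deposited, the gene-level fit took a single spread for all genes, so its p does not measure the spread of the gene itself. The scripts were tested on simulated data.

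All 10 members are described. From each list genes were named among the 3 with the smallest p, and for each member the probe sets with the lowest and highest splicing index were considered. LIPC probe set 3595767 and the neighbours APOA4 and APOC1 were named after their values were seen. Members, lists and tests were chosen with earlier results of these data known. The alternatives were median centring, quantile normalization, a replicate block, log2(value + 16), a filter on dim probe sets, the mean over probe sets, an intensity trend and leaving out each array. Median centring with each array left out was chosen after seeing the data. Promoter windows came from RefSeq (GRCh38.p14). Several genes of the lists were not analysed here.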

Additional observations from a re-analysis of the deposited data

How the results depend on the processing

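Under the 20 alternatives, 0 of the 10 members were called in limma, the lowest adjusted p of any member being 0.172 (LIPC, quantile normalization with the replicate block). APOB was lower and APOH and LIPC higher in amiloride-treated cells under every one of them, although the relative difference of APOH without untreated replicate 1 was 0.01. The other 7 members changed sign in 22 of the values recomputed, each with 1 array left out, as deposited or after median centring. With each array left out as deposited, the log2 difference ran from -0.14 to 0.39 for APOA1, -0.27 to 0.58 for APOA2, -0.47 to 0.42 for APOA5, -0.15 to 0.46 for APOC3, -0.21 to 0.89 for APOE, -0.38 to 1.11 for APOM and -1.17 to 0.28 for MTTP. The lowest values of APOA1, APOA2, APOE and APOM were those without amiloride replicate 1. After median centring, the values with the other sign were 0.0030 and 0.026 for APOA5 without amiloride replicates 1 and 2, -0.015 for APOC3 and 0.28 for MTTP without amiloride replicate 3, 0.081 for MTTP without untreated replicate 2, and -0.0013 for APOA1, -0.029 for APOA2 and 0.11 for APOA5 without untreated replicate 1. The members' median log2 fold change of 0.17 ranged from -0.24 (without amiloride replicate 1) to 0.52 with 1 array left out. Without amiloride replicate 1 the median of all genes was -0.37.

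The count of called genes across all genes, 6 as deposited, was 2 with median centring, 2 with quantile normalization, 3 with quantile normalization and the replicate block, 0 with log2(value + 16), 2 with the filter on dim probe sets (mean log2 of at least 2.796, which kept all 10 members), 1 with the mean over probe sets and 2 with an intensity trend. It ran from 1 to 6 with each array left out and from 0 to 5 with median centring and each array left out. The cause was not tested. Median centring moved the median of all genes to 0.13, against 0.04 as deposited. The 3 splicing criteria were met by 0 to 1 probe sets of the members with each array left out, namely APOA5 3392962 without amiloride replicate 1, APOH 3767711 without untreated replicate 1 and APOA5 3392965 without untreated replicate 3.

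With the replicate number as a block 0 genes were called, and APOB had an adjusted p of 0.267 in limma and LIPC 0.270. The standard errors were smaller with the block, at 0.258 for APOB and 0.380 for LIPC, against 0.659 without it. Array medians also ran in the same order of replicate number in both groups. Deviations of same-numbered arrays correlated at r = 0.0974 to 0.188, and 5 of 6 arrays correlated best with their own number, as a hint from the data. The labels name no shared batch or culture, and a correlation over 0.1 in every pair had been required, which replicate 2 missed narrowly, so the main test had no block. The 95% intervals of all members but APOB on relative levels include 0, and so do not resolve a direction.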
